A study of Homo sapiens with 10 samples.

Results

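The MYC network genes described here are 10 rows of the count table, chosen by symbol, out of 58735 rows in all: MYC, its partner MAX, the related partner MLX, the antagonists MXD1, MXI1, MXD4, MNT and MGA, and the MYC-binding proteins MYCBP and MYCBP2. All 10 were among the 13934 genes with enough counts to test. The study sequenced RNA of HCMECs, which the labels give as endothelial cells of brain and as a cell line. Cells of 5 libraries carried a control siRNA (siCtrl), and cells of another 5 an siRNA against USP9X (siUSP9X), a deubiquitinase. Transfection lasted 48 h, and every culture, controls included, then had Wnt3a for 12 h, so no comparison with cells lacking Wnt3a was made. The labels do not say whether replicates were separate cultures, so the spread between libraries may be technical. The genes were chosen by name with the siUSP9X and siCtrl values of these same libraries known, so their differences are given as a description.

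MYC is a transcription factor that binds DNA as a pair with MAX, mostly at the short sequence CACGTG, called an E-box, and raises genes of growth, ribosome assembly and metabolism. MXD1, MXI1, MXD4, MNT and MGA also pair with MAX, compete for the same sites and lower transcription, the MXD and MNT proteins by recruiting SIN3 and histone deacetylases. MLX sits in a parallel branch, where it pairs with MondoA or with some of the antagonists and links the network to glucose supply. MYC itself is a well-known target of Wnt signalling in the gut, and MYC protein is short-lived because ubiquitin ligases mark it for degradation.

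Libraries held 15958362 to 26467787 counts. USP9X mRNA averaged 341 ± 48.6 CPM (counts per 1000000 of the scaled library total) in siCtrl and 35.2 ± 19.8 CPM in siUSP9X (SD, n = 5 each), with every siUSP9X library below every siCtrl library. The library siUSP9X replicate 2 stood apart: its share of counts on 80 ribosomal protein genes was 2.06%, where the 9 remaining libraries had 4.29 to 6.15%, and its share on the mitochondrial rRNA MT-RNR2 was 1.4%, where they had 0.38 to 0.573%. USP9X mRNA was least reduced in this library, at 68.8 CPM, where the other siUSP9X libraries had 20.7 to 36.5 CPM. The log2 fold change of USP9X was -3.28 ± 0.32 (SE) with all libraries and -3.67 ± 0.16 without siUSP9X replicate 2. Fold changes that moved markedly when that library was left out are given both ways. Of 15 endothelial markers, 4 passed the filter on low counts (ESAM, ENG, EGFL7 and CDH5), while PECAM1 had 8 counts in each group and FLT1, ERG and EMCN had 0. In siCtrl ESAM averaged 161 CPM, ENG 84.1, EGFL7 27.5 and CDH5 0.545 CPM. VWF, KDR, TEK, TIE1, MMRN2, CLDN5 and ROBO4 each had at most 24 counts in either group. The summed endothelial markers ran from 236 to 300 CPM in siCtrl and from 110 to 254 CPM in siUSP9X. Of 10 epithelial markers 5 passed, with sums of 3320 to 4180 CPM and 2040 to 2760 CPM. Nearly all of these sums came from the keratins KRT8 and KRT18, with siCtrl means of 2160 and 1580 CPM. In siCtrl ESRP1 averaged 5.78 CPM, CLDN4 1.0, EPCAM 0.887, CDH1 0.223 and KRT19 0.0467 CPM, while KRT5, KRT14 and GRHL2 had 0 counts. Markers of mural cells, fibroblasts, neural cells and leukocytes summed to at most 6.41 CPM in any library. The epithelial sums were lower in every siUSP9X library, while the endothelial ranges overlapped, and their part in the results below was not tested. Fewer cells of a type and less RNA per cell cannot be told apart in bulk RNA.

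Among the 10 network genes, 1 was called lower and 0 higher in siUSP9X cells in the fit across all genes (edgeR quasi-likelihood test, adjusted p under 0.05), where 3.22% of all tested genes were called lower and 4.09% higher. At an unadjusted p under 0.05, 2 of the 10 were lower, MYCBP and MLX, and 0 higher, where 11.9% of all tested genes were lower and 15.9% higher. DESeq2 gave 3 lower and 0 higher at that level, and DESeq2 and limma-voom each called MYCBP alone after adjustment. The median log2 fold change was -0.04 over the 10 genes and 0.03 over all tested genes. The network thus held 1 gene with a large difference and 9 that did not pass the threshold.

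**Figure D1:**
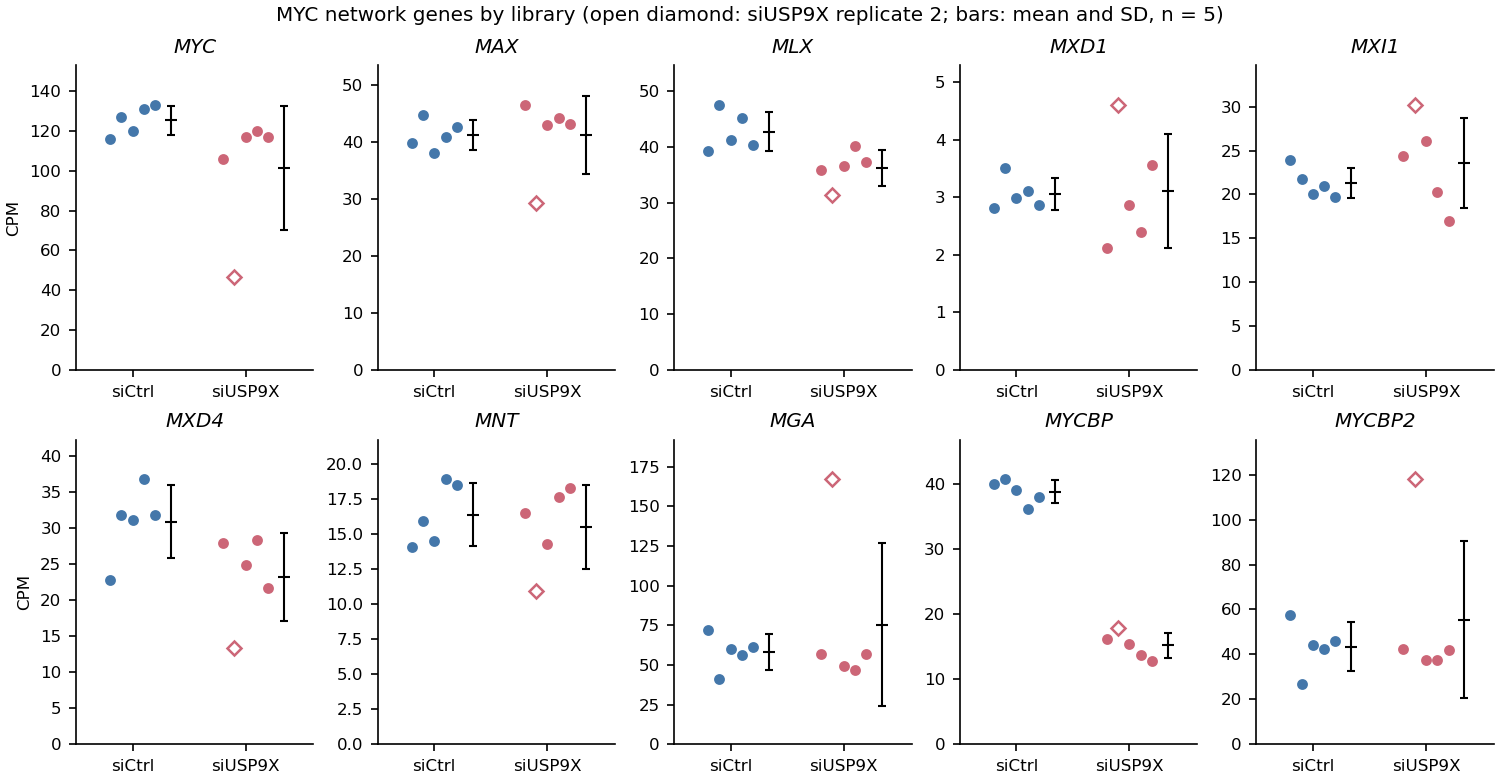
CPM of each network gene (vertical axes, from 0) in the siCtrl and siUSP9X libraries, 1 point per library, with the mean and SD (n = 5) beside each group. MYCBP is the gene whose groups lie far apart, and siUSP9X replicate 2 (open diamond) lies far below the other siUSP9X libraries for MYC and far above them for MGA and MYCBP2.

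MYCBP encodes a small protein that binds the amino-terminal part of MYC and stimulates its activity. The gene lies on the minus strand at chr1:38862964-38874105 (ENSG00000214114.8, GRCh38). Its mRNA stood at 39.9, 40.7, 39.1, 36.2 and 38 CPM in siCtrl replicates 1 to 5, from 763, 753, 695, 957 and 717 counts. In siUSP9X replicates 1 to 5 it stood at 16.1, 17.8, 15.4, 13.7 and 12.8 CPM, from 274, 322, 263, 223 and 220 counts. The groups did not overlap, and the lowest siCtrl value was above the highest siUSP9X value by more than the whole range of either group. MYCBP was the 1 network gene of 10 with every siUSP9X library below every siCtrl library, as found for 6.85% of tested genes, and 0 had every one above (7.79% of tested genes). These counts were again 1 and 0 without siUSP9X replicate 2, beside 9.54% and 10.4% of tested genes. MYCBP fell 2.55-fold, a log2 fold change of -1.35 ± 0.11 (SE, 95% interval -1.60 to -1.11, edgeR adjusted p = 0.000155, and 7.68e-28 to 0.0203 over the alternatives). Leaving out any 1 of the 10 libraries kept the call, with log2 fold changes from -1.42 to -1.30. Library siUSP9X replicate 2 gave the highest siUSP9X value of MYCBP but stayed within 1.23 times the mean of the other 4. The annotated readthrough gene GJA9-MYCBP shares 32.1% of the exonic bases of MYCBP. It had 6 counts in siUSP9X replicate 4 and 0 in every other library, and how the authors' counting split reads between both rows is not known.

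The 3′ untranslated region (UTR) of MYCBP, 1706 bases in the longest annotated form, holds the 7-base word CAACTCT at bases 780 to 786. This word is 1 of 4, beside the word AATCACA, the word AACTCTA and the word ATCACAA, picked as common among the lower genes from the fold changes of these same libraries, so the match is a description and lends no support. At least 1 of the words stood in 54.1% of lower genes, 30.1% of higher genes and 34.1% of all 11952 tested genes with such a region, and CAACTCT alone in 12.6% of the latter. Of the network genes, MAX, MXI1, MXD4, MGA and MYCBP hold 1 or more words and MYC, MLX, MXD1, MNT and MYCBP2 hold none. MGA holds all 4 words at 3 sites, MXI1 holds 2 words that overlap at 1 site, and MYCBP, MXD4 and MAX hold 1 word each. The region has 5801 bases in MGA, 476 in MYC, 723 in MYCBP2 and 4661 in MXD1. Its median is 2489 bases in the network genes and 1658 in all tested genes with such a region. The part of length in the matches was not tested. The lines below give 1 site of each gene from GENCODE transcripts, with the words in capitals, to show MYCBP beside the 4 genes that did not pass the threshold.
MYCBP: gcaatataCAACTCTgggttcac
MXD4: cctggaaaCAACTCTggcacaga
MGA: ctaggctaCAACTCTgtacagca
MXI1: attggaaaAATCACAAtttttaat
MAX: acggtgacATCACAAgccttctc

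MYC, the activator at the centre of the network (ENSG00000136997.17, plus strand, chromosome 8, bases 127735434 to 127741434), was 116, 127, 120, 131 and 133 CPM in siCtrl replicates 1 to 5. In siUSP9X replicates 1 to 5 it was 106, 46.8, 117, 120 and 117 CPM. Replicate 2 was less than 0.41 times the mean of the other 4 siUSP9X libraries, and the latter lay at the lower edge of the siCtrl range, with 3 of them inside it. The log2 fold change was -0.31 ± 0.21 (SE, 95% interval -0.78 to 0.16, edgeR adjusted p = 0.348). Without siUSP9X replicate 2 it was -0.12 ± 0.07, so that 1 library accounted for most of the estimated difference, and MYC did not pass the threshold in any of the 19 alternatives. The intervals do not show that MYC was equal in both groups.

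MAX, the partner that MYC and its antagonists share, had nearly equal means in both groups. It stood at 39.9, 44.8, 38, 40.9 and 42.6 CPM in siCtrl and 46.5, 29.3, 43.0, 44.3 and 43.2 CPM in siUSP9X, in replicate order. Apart from siUSP9X replicate 2, which was again low, the siUSP9X libraries lay in the upper part of the siCtrl range or just above it. The log2 fold change was 0.00 ± 0.13 (SE, 95% interval -0.28 to 0.28), its sign turned under 7 alternatives that kept all libraries, and without replicate 2 it was 0.10 ± 0.08.

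MLX, the partner in the MondoA branch, stood at 39.3, 47.5, 41.3, 45.1 and 40.4 CPM in siCtrl and 35.9, 31.3, 36.5, 40.1 and 37.3 CPM in siUSP9X. The groups met at their edges, with 1 siUSP9X library inside the siCtrl range and 4 below it. Its log2 fold change of -0.24 ± 0.10 (SE, 95% interval -0.46 to -0.02) did not pass the threshold over all genes (edgeR adjusted p = 0.154), and it was -0.19 ± 0.09 without siUSP9X replicate 2. MLX overlaps PSMC3IP, on the opposite strand, over 18.1% of its exonic bases. PSMC3IP had 307 to 451 counts in siCtrl libraries and 99 to 268 in siUSP9X libraries, and the sources used here do not state a strand setting.

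Of the MAX-binding repressors, MXD4 had the largest negative estimate. It stood at 22.8, 31.9, 31.2, 36.8 and 31.8 CPM in siCtrl and 27.9, 13.3, 24.9, 28.3 and 21.7 CPM in siUSP9X. The groups overlapped because siCtrl replicate 1 was low, while the other 4 siCtrl libraries lay above all siUSP9X libraries. The log2 fold change was -0.41 ± 0.20 (SE, 95% interval -0.85 to 0.02, edgeR adjusted p = 0.198) and -0.27 ± 0.12 without siUSP9X replicate 2.

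MXI1, a close relative of MXD4, stood at 23.9, 21.8, 20, 21.0 and 19.7 CPM in siCtrl and 24.4, 30.2, 26.1, 20.3 and 17.0 CPM in siUSP9X. The siUSP9X libraries spread to both sides of the siCtrl range, and the log2 fold change was 0.15 ± 0.15 (SE), or 0.05 ± 0.12 without siUSP9X replicate 2. MNT, a broadly expressed repressor, ran from 14.1 to 18.9 CPM in siCtrl (median 15.9) and from 10.9 to 18.3 CPM in siUSP9X (median 16.5). Its groups overlapped throughout, with a log2 fold change of -0.08 ± 0.16 (SE) and 0.02 ± 0.12 without siUSP9X replicate 2. MXD1, the founding member of the MXD family, was the least abundant, at 54, 65, 53, 82 and 54 counts in siCtrl and 36, 83, 49, 39 and 61 in siUSP9X. These are 2.82 to 3.51 CPM and 2.12 to 4.60 CPM, with a log2 fold change of 0.03 ± 0.21 (SE, 95% interval -0.44 to 0.49), and -0.16 ± 0.19 without siUSP9X replicate 2.

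MGA, a very large protein that carries a MYC-type DNA-binding domain beside a T-box domain, stood at 72.1, 40.9, 60.2, 56.2 and 61.3 CPM in siCtrl and 56.8, 167, 49.5, 47.0 and 56.6 CPM in siUSP9X. MYCBP2, a giant E3 ubiquitin ligase named for its binding to MYC, stood at 57.5, 27.0, 44.0, 42.6 and 46.0 CPM in siCtrl and 42.3, 118, 37.6, 37.5 and 41.8 CPM in siUSP9X. Both genes were far higher in siUSP9X replicate 2 than in any other library, and both were highest in replicate 1 and lowest in replicate 2 among the siCtrl libraries. The ratio of MGA to MYCBP2 CPM stayed between 1.25 and 1.52 over the 10 libraries. Their log2 fold changes were 0.38 ± 0.34 and 0.35 ± 0.33 (SE) with all libraries. Without siUSP9X replicate 2 both turned negative, to -0.15 ± 0.12 and -0.12 ± 0.15, and neither passed the threshold in any alternative.

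**Figure D2:**
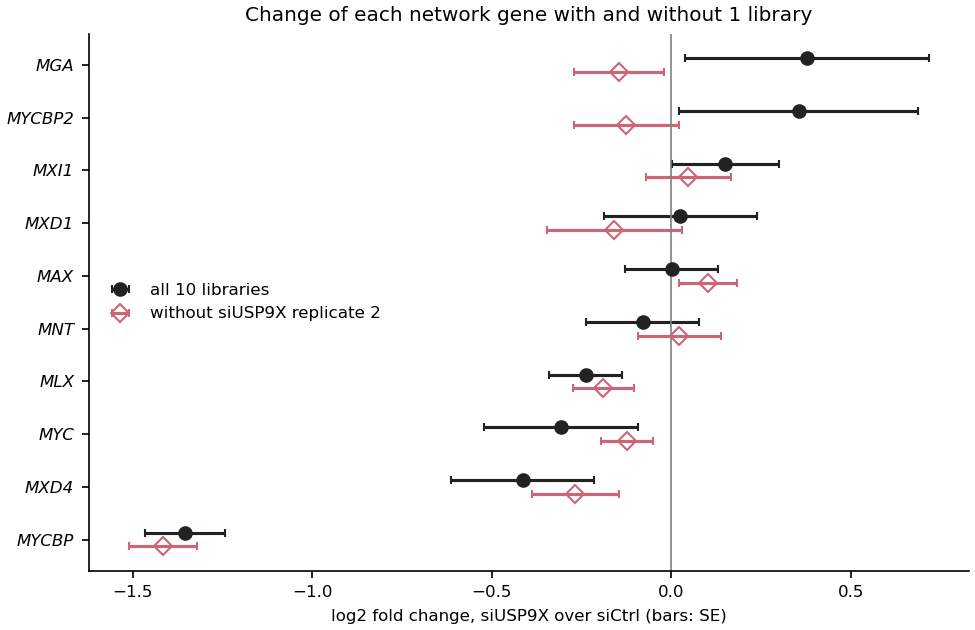
Log2 fold change of each network gene (horizontal axis, siUSP9X over siCtrl, bars are SE) with all 10 libraries (filled) and without siUSP9X replicate 2 (open). MYCBP keeps its place at -1.35 and -1.42, while MGA and MYCBP2 cross 0 and MYC moves from -0.31 to -0.12.

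MGA and MYCBP2 have exons of 17651 and 15945 bases in all, against 3001 for MYC and 3039 for MYCBP. When tested genes were put into 5 groups of equal size by exon length, the median log2 ratio of siUSP9X replicate 2 to the mean of the other siUSP9X libraries was -0.53 in the shortest group, -0.33 in the next and 0.60 in the longest. MGA (1.65) and MYCBP2 (1.55) lay above the median of the longest group and MYC (-1.28) below that of its own group. The network did not follow length throughout: MNT, with 8728 bases, was at -0.57 and MXD4, with 7058 bases, at -0.90, where the median of the group of MXD4 was 0.22. MYCBP was at 0.28. With an offset for exon length in each library, the log2 fold change of MGA was -0.06, the log2 fold change of MYCBP2 was -0.04 and the log2 fold change of MYCBP was -1.21.

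**Figure D3:**
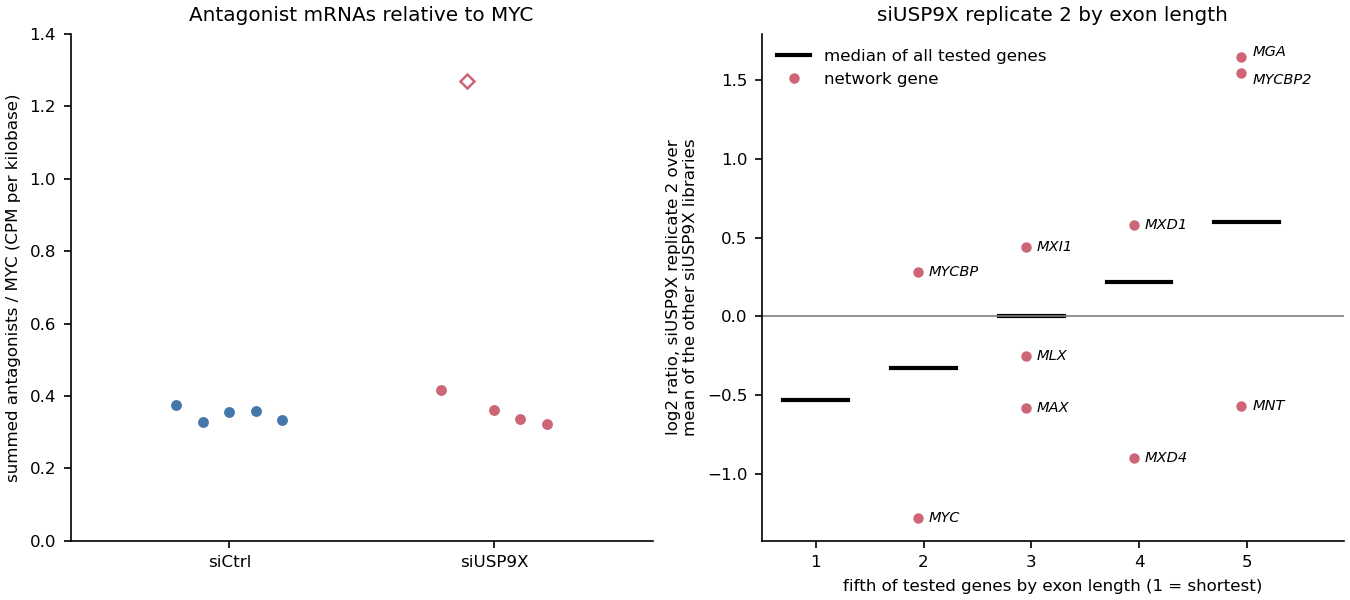
Left, the summed level of the 5 antagonists divided by that of MYC, in CPM per kilobase, for each library. Right, the log2 ratio of siUSP9X replicate 2 to the other siUSP9X libraries for each network gene (points) and the median of all tested genes (bars) in 5 groups by exon length: the medians climb from -0.53 to 0.60, with MYC, MXD4 and MNT well below them and MGA and MYCBP2 well above.

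Levels can be compared between genes per length of exon. In siCtrl cells MYC was the most abundant of the 10 at 41.9 ± 2.38 CPM per kilobase (SD, n = 5), and MYCBP came next at 12.8 ± 0.57. MLX (10 ± 0.812) and MAX (9.31 ± 0.589) followed, with ranges that overlapped each other and did not reach that of MYCBP. The next 5 genes, MXI1 (4.62), MXD4 (4.38), MGA (3.29), MYCBP2 (2.72) and MNT (1.88 CPM per kilobase), formed a chain in which each range overlapped that of its neighbour. MXD1 was lowest at 0.481 ± 0.0435 CPM per kilobase. The order below MYC depends on the length used: per kilobase of the longest transcript, MLX came next to MYC at 16.5 ± 1.34, wholly above MYCBP at 13.8 ± 0.614, whose range then overlapped that of MAX (13.1 ± 0.827). In siUSP9X cells MYC was again first (33.8 ± 10.3 CPM per kilobase), MAX came next at 9.31 ± 1.54, and MYCBP took place 5 at 4.99 ± 0.653, or place 6 by the longest transcript. MYC mRNA was 4.19 to 4.72 times that of MAX per kilobase in siCtrl libraries and 3.36 to 4.03 times in siUSP9X libraries other than replicate 2, where it was 2.36 times.

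**Figure D4:**
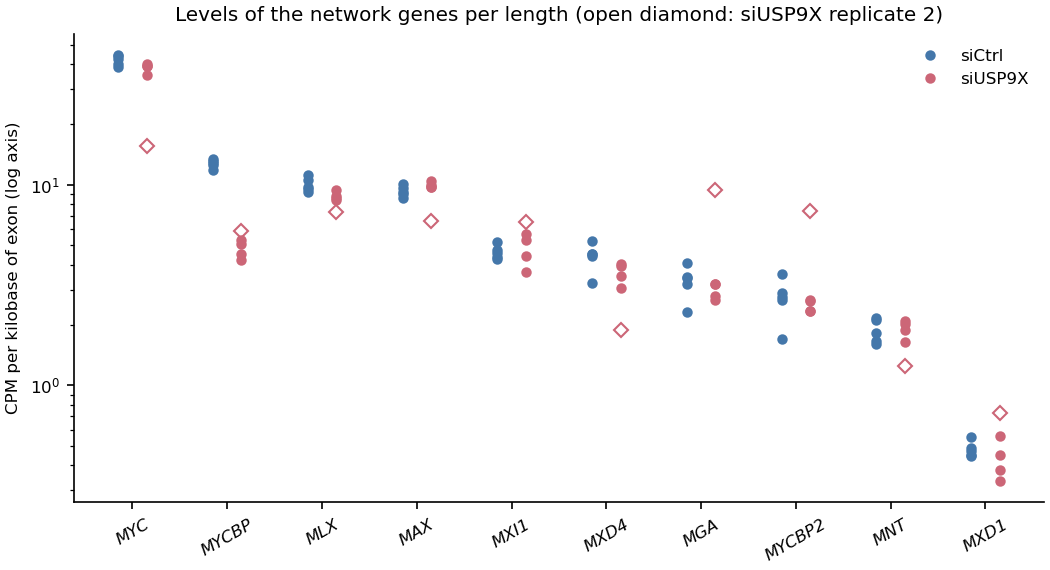
CPM per kilobase of exon (log axis) of the 10 network genes, ordered by their siCtrl mean, 1 point per library. MYC leads in both groups, and MYCBP drops from 12.8 to 4.99 CPM per kilobase, below the level of MAX and MLX.

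Summed over MXD1, MXI1, MXD4, MNT and MGA, the antagonists stood at 0.376, 0.328, 0.357, 0.358 and 0.334 times the level of MYC per kilobase in siCtrl replicates 1 to 5. In siUSP9X replicates 1 to 5 the ratio was 0.416, 1.27, 0.36, 0.337 and 0.323. Replicate 2 was the sole library in which the antagonists exceeded MYC. The mean was 0.351 ± 0.0194 in siCtrl, and in siUSP9X 0.542 ± 0.411 with replicate 2 (SD, n = 5) and 0.359 ± 0.0409 without it (SD, n = 4). The 4 other siUSP9X libraries therefore overlapped the siCtrl range.

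RefSeq promoter windows (250 bases before to 50 after a start site, GRCh38.p14) were at hand for 9 of the 10 genes, all but MYC, in 15 windows. The E-box CACGTG, which reads the same on both strands, stood in a window of MLX, MNT and MXD4, and 7.26% of all 35116 windows hold it. The variant CACGCG, searched on both strands, stood in windows of MXI1 and MGA (11.4% of all windows). None of the 15 windows held a tandem E-box, 2 boxes 5 bases apart (0.0057% of all windows), the TCF/LEF word CTTTGAT (2.62%) or the E2F word TTTCGCGC (0.515%), both strands searched. The E-box windows are shown because MYC, MAX and the antagonists bind this sequence, with the box in capitals.
MLX, chr17:42567038-42567067, plus strand: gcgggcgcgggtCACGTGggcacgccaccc
MNT, chr17:2401236-2401265, minus strand: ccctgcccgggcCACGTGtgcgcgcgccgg
MXD4, chr4:2262330-2262359, minus strand: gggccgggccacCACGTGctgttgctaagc
Counted from the start site, the boxes begin at -50 in MLX, -193 in MNT and -238 in MXD4. The log2 fold changes of the 3 genes, -0.24, -0.08 and -0.41, did not pass the threshold, and a match of letters does not show binding.

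The tested genes whose profile over the 10 libraries lay nearest to that of MYC were CMTM3, EMD and SF3B4, among 10561 genes with a mean of at least 5 CPM. The root mean square difference of centred log2(CPM + 1) was 0.0656, 0.0657 and 0.0735. Like MYC they were low in siUSP9X replicate 2, at 136, 29.5 and 47.8 CPM against siCtrl means of 351, 82.1 and 113 CPM. That likeness follows from the choice, which used the values of these same libraries. None of them passed the threshold, and their log2 fold changes of -0.35, -0.32 and -0.32 were -0.17, -0.13 and -0.16 without that library. Nearest to MYCBP were MESD, METTL9 and PRKAR1A, with differences of 0.0778, 0.0796 and 0.0812. MESD, a chaperone of Wnt co-receptors, averaged 62.6 CPM in siCtrl and 23.1 in siUSP9X. METTL9, a methyltransferase, averaged 106 and 42.4 CPM, and PRKAR1A, a regulatory subunit of protein kinase A, 302 and 120 CPM. The log2 fold changes of these 3 genes were -1.43, -1.32 and -1.33. Their closeness to the -1.35 of MYCBP also follows from the choice and lends no support.

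The network has further members outside the 10. MXD3, an MXD repressor tied to the cell cycle, stood at 14.5, 28.6, 20.6, 23.3 and 24 CPM in siCtrl and 11.6, 2.27, 11, 12.5 and 8.72 CPM in siUSP9X. All siUSP9X libraries lay below all siCtrl libraries, yet the log2 fold change of -1.27 ± 0.35 (SE) just missed the threshold with edgeR (adjusted p = 0.0529, and 0.000185 to 0.201 over the alternatives). It passed with DESeq2, with limma-voom, with the length offset and without siUSP9X replicate 2 (-1.02 ± 0.16). MLXIP, which encodes MondoA, had a log2 fold change of -0.06 ± 0.13, and -0.15 without that library. MYCN, MYCL and MLXIPL were too low to test, with 1, 31 and 4 counts over the siCtrl libraries and 1, 11 and 3 over the siUSP9X libraries. Thus 0 of the 2 measured further members passed with edgeR, 1 at an unadjusted p under 0.05, and 1 each with DESeq2 and limma-voom. Of all tested genes edgeR called 3.22% lower, and 11.9% were lower at the unadjusted level. DESeq2 called 7.06% lower and limma-voom 3.52%.

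Of 3 measured targets of MLX and MondoA, 2 were called higher and 0 lower (all tested genes, 4.09% higher and 3.22% lower). TXNIP and ARRDC4, both induced by MondoA with MLX, rose from 3.66 ± 0.569 to 6.40 ± 1.89 CPM and from 2.81 ± 0.339 to 4.57 ± 0.766 CPM (SD, n = 5 each). Their log2 fold changes were 0.80 ± 0.22 and 0.71 ± 0.16 (SE, edgeR adjusted p = 0.0482 and 0.0251), and the remaining gene of the list of 3, KLF10, had 0.07 ± 0.10. The list's median was 0.71. Of 18 alternatives that gave an adjusted p, TXNIP passed in 6 and ARRDC4 in 11. The groups of TXNIP overlapped, at 3.08 to 4.47 CPM in siCtrl and 3.66 to 8.69 CPM in siUSP9X, while those of ARRDC4 did not. With 1 library left out at a time, TXNIP passed in 2 fits of 10, those lacking siUSP9X replicate 2 or 5, and ARRDC4 in 5, those lacking siCtrl replicate 1 or siUSP9X replicate 2, 3, 4 or 5.

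Genes that MYC is known to raise, chiefly of ribosome assembly and metabolism, mostly had small negative estimates. Of 59 measured, 3 fell, 1 rose and 55 did not pass the threshold (all tested genes, 7.31% called, 3.22% lower and 4.09% higher). Of these 59, 18 were lower and 3 higher at an edgeR unadjusted p under 0.05 (all tested genes, 11.9% lower and 15.9% higher). The median log2 fold change was -0.24, against 0.03 over all tested genes, and 47 of the 59 estimates were below 0. BOP1, a ribosome biogenesis factor, fell from 266 ± 41.7 to 164 ± 28.7 CPM (log2 fold change -0.70 ± 0.15), UNG, a uracil-DNA glycosylase, from 80.1 ± 4.28 to 49.8 ± 10.5 CPM (-0.69 ± 0.15), and LAS1L, which processes ribosomal RNA, from 111 ± 6.95 to 85.1 ± 9.47 CPM (-0.38 ± 0.10). The gene that rose was CCND2, which encodes cyclin D2 (13 ± 3.33 to 27.1 ± 13.3 CPM, log2 fold change 1.06 ± 0.29, and 0.72 without siUSP9X replicate 2). Without siUSP9X replicate 2, 19 fell and 2 rose, where 23.4% of all genes were called, 11.5% lower and 11.9% higher. The median was then -0.16. Those 19 included the nucleolar protein gene NCL (-0.37), the spermidine synthase gene SRM (-0.43) and the ribosome assembly gene RRP9 (-0.46), named after their values were seen. With 1 library left out at a time, UNG kept its call in 6 fits of 10 and BOP1 in 5, both losing it without siCtrl replicates 2, 3, 4 or 5, and BOP1 also without siUSP9X replicate 3. CCND2 and LAS1L kept theirs in 1, without siUSP9X replicate 2.

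Genes that MYC is known to lower showed no shared direction. Of 7 measured, 1 rose, 0 fell and 6 did not pass (all tested genes, 4.09% higher and 3.22% lower), with a median log2 fold change of -0.09. CDKN2B, which encodes the CDK inhibitor p15, rose from 6.46 ± 0.633 to 14.5 ± 3.24 CPM, by 1.17 ± 0.16 on the log2 scale (edgeR adjusted p = 0.00239, and 4.24e-08 to 0.0448 over the alternatives), with no overlap between the groups. THBS1, NDRG1 and GADD45A had log2 fold changes of 0.60 ± 0.23, 0.24 ± 0.12 and -0.51 ± 0.29. At an unadjusted p under 0.05, 2 of the 7 were higher and 0 lower with each of edgeR, DESeq2 and limma-voom. Of all tested genes 15.9%, 16.3% and 14.4% were higher at that level, and 11.9%, 13.7% and 13.1% lower, in the same order. THBS1 (0.28) was called higher and GADD45A (-0.27) lower, beside CDKN2B, without siUSP9X replicate 2, where 11.9% of all genes were called higher and 11.5% lower.

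Of 15 genes that set the turnover of MYC protein, 1 rose, 0 fell and 14 did not pass (all tested genes, 4.09% higher and 3.22% lower), with a median log2 fold change of 0.35. FBXW7, the ubiquitin ligase subunit that recognises phosphorylated MYC, rose from 10.9 ± 1.19 to 20.5 ± 6.90 CPM (0.92 ± 0.20, edgeR adjusted p = 0.0216, and 0.000544 to 0.131 over the alternatives). Its call was kept in 6 of 10 fits that each lacked 1 library and was lost without siCtrl replicates 2, 3, 4 or 5. PPP2R5A, a phosphatase subunit, FBXO28, a ubiquitin ligase subunit, and USP28, a deubiquitinase that opposes FBXW7, had log2 fold changes of 0.34 ± 0.10, 0.57 ± 0.22 and 0.45 ± 0.18. Without siUSP9X replicate 2, FBXW7 (0.70), PPP2R5A (0.28) and FBXO28 (0.28) were called higher, where 11.9% of all genes were, USP28 was at 0.23 and the median of the list was 0.09. At an unadjusted p under 0.05, 6 genes of the list were higher with edgeR, 6 with DESeq2 and 4 with limma-voom. With any of them 0 were lower. Of all tested genes 15.9%, 16.3% and 14.4% were higher at that level, and 11.9%, 13.7% and 13.1% lower, in the same order.

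**Figure D5:**
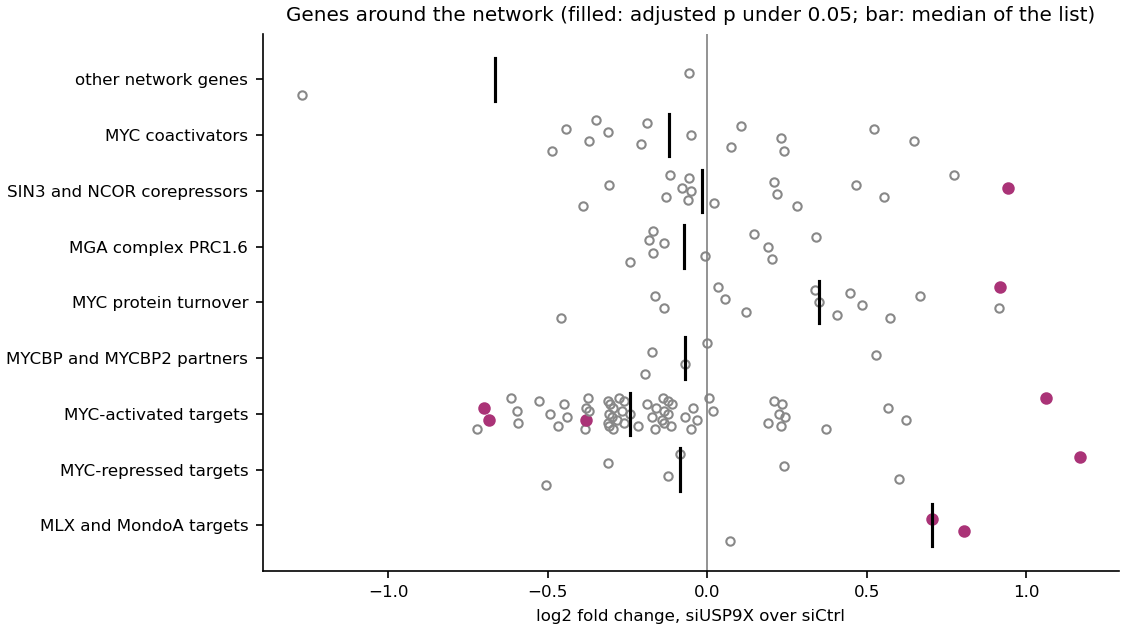
Log2 fold change (horizontal axis, siUSP9X over siCtrl) of each measured gene in 9 lists around the network, 1 point per gene, filled where the adjusted p was under 0.05, with a bar at each list's median. The MYC-activated targets gather left of 0 with a median of -0.24, and the turnover genes right of 0 with a median of 0.35. Without siUSP9X replicate 2, not drawn here, these medians were -0.16 and 0.09.

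Of 14 coactivators of MYC, 0 passed with edgeR while DESeq2 called 3 and limma-voom 0, and the edgeR unadjusted p was under 0.05 for 6, of which 5 were lower. Over all genes DESeq2 called 7.06% lower, and the edgeR unadjusted p was under 0.05 for 27.8%, with 11.9% of all genes lower. RUVBL2 and RUVBL1, helicase-like subunits of chromatin complexes, had log2 fold changes of -0.49 ± 0.16 and -0.44 ± 0.15, the acetyltransferase gene KAT2A -0.37 ± 0.13, and HCFC1, which binds MYC, -0.35 ± 0.13. These 4 were called lower without siUSP9X replicate 2, where 11.5% of all genes were. Of 16 SIN3 and NCOR corepressor genes, through which the MXD proteins and MNT act, ARID4A rose (16.6 ± 1.98 to 32.0 ± 13.6 CPM, 0.94 ± 0.23), 0 fell and 15 did not pass. At an unadjusted p under 0.05, 5 corepressor genes were higher and 1 lower with edgeR, where 15.9% of all tested genes were higher and 11.9% lower. DESeq2 called 3 corepressor genes higher and 0 lower, and limma-voom 1 higher and 0 lower. Over all tested genes edgeR called 4.09% higher and 3.22% lower, DESeq2 8.1% and 7.06%, and limma-voom 3.92% and 3.52%. HDAC2 and ARID4B had 0.47 ± 0.14 and 0.77 ± 0.26, and without siUSP9X replicate 2 HDAC2 (0.32), ARID4B (0.43) and ARID4A (0.65) were called higher, where 11.9% of all genes were. ARID4A kept its call in 4 of 10 fits that each lacked 1 library, those without siCtrl replicate 1 or siUSP9X replicates 2, 4 or 5.

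Of 10 genes of PRC1.6, the Polycomb complex that contains MGA, 0 passed with edgeR, DESeq2 or limma-voom. The edgeR unadjusted p was under 0.05 for 0 of them and for 27.8% of all tested genes. RNF2, L3MBTL2, TFDP1 and CBX3 had log2 fold changes of 0.34 ± 0.16, -0.24 ± 0.12, -0.17 ± 0.11 and -0.17 ± 0.12. Leaving out siUSP9X replicate 2 gave 0.16, -0.16, -0.12 and -0.23 in the same order. Of 5 measured partners of MYCBP and MYCBP2, 0 passed with edgeR while DESeq2 called 1 and limma-voom 0. The edgeR unadjusted p was under 0.05 for 2, as for 27.8% of all tested genes. Over all genes DESeq2 called 8.1% higher and 7.06% lower. FBXO45, which works with MYCBP2 as a ubiquitin ligase, had 0.53 ± 0.18. It was called higher without siUSP9X replicate 2 (0.33), where 11.9% of all genes were. AKAP1, an anchoring protein that binds MYCBP, had -0.19 ± 0.09, and RAE1 and SKP1 had -0.17 ± 0.10 and -0.07 ± 0.15, or -0.11 and 0.05 without that library.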

How the data were processed

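RNA was measured in 5 siCtrl and 5 siUSP9X libraries, grouped by title. The authors deposited 1 table of whole-number counts per gene symbol, not normalized. Per the labels' protocols the libraries were made with an Illumina stranded mRNA kit. Per the submitters' processing notes, hg38, RSEM and DESeq2 were used, so the counts may be rounded estimates. The aligner, annotation and strand setting are not given in the sources used here. Positions and exon lengths come from GENCODE release 29 (GRCh38), in which 96.91% of lines matched 1 gene by symbol. No replicates were merged, since the chi-square between any of them was at least 5.25 times its degrees of freedom.

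All genes were tested with the edgeR 4.0.16 quasi-likelihood test (R 4.3.3) with TMM factors, filterByExpr (minimum count 10), group as the only term, two-sided p-values and Benjamini-Hochberg adjustment over all tested genes, threshold 0.05. CPM use the TMM-scaled library size, and SE is the log2 fold change over the root of its F. The test was checked on simulated counts. Lower depth widens the error of low genes such as MXD1. Alternatives used DESeq2 1.42.0, limma 3.58.1 (voom), other factors, filters and thresholds, a replicate block, a length offset and each library left out, and levels per kilobase of all exons were repeated per kilobase of the longest transcript.

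The members and gene lists were chosen with earlier results of these data known. Genes named from a list are its 4 tested genes with the smallest p, and profile neighbours are the 3 nearest to MYC and to the member with the largest change; others are said to be named after their values were seen. The MYC promoter was not used here, and 1 gene that the naming rule picked is not reported here.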

Additional observations from a re-analysis of the deposited data

Results flagged for a closer look

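For 50 named genes, each group of 5 libraries was searched for a library far from the other 4, where the gap to the nearest exceeded 0.71 of the group's range. Chance flags about 1 in 20 groups, and 100 groups were searched. Of 18 such values 17 came from siUSP9X replicate 2, and 4 of them were in network genes: 46.8 CPM for MYC and 29.3 CPM for MAX, both the lowest of their group, and 167 CPM for MGA and 118 CPM for MYCBP2, both the highest. Among the other genes named, siUSP9X replicate 2 was highest for ARID4A (55.8 CPM), HDAC2 (277 CPM), ARID4B (116 CPM), RNF2 (63.0 CPM), FBXO28 (156 CPM), USP28 (104 CPM), FBXO45 (64.7 CPM), CCND2 (50.3 CPM) and THBS1 (739 CPM). It was lowest for RAE1 (63.0 CPM), GADD45A (9.03 CPM), CMTM3 (136 CPM) and SF3B4 (47.8 CPM), of which CMTM3 and SF3B4 were named for their likeness to MYC. The remaining value was ARID4A in siCtrl replicate 1, the highest of its group at 20.2 CPM.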

How the results depend on the processing

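MYCBP was lower and past the threshold under every alternative run, and no other network gene passed under any. Over all genes, 34 were higher and 57 lower with the replicate block, 1134 and 988 with DESeq2, 102 and 136 at an adjusted p under 0.01, and 715 lower with a length offset, and leaving out 1 library gave 170 to 1674 higher and 189 to 1620 lower. Between siCtrl and siUSP9X libraries of the same number, the correlation of deviations ran from -0.419 to 0.228. Of 5 siCtrl libraries, 1 matched its own number best. These values also carry the deviations of siUSP9X replicate 2, so they cannot decide whether libraries of the same number were made together. Called genes numbered 1 of the further network genes with the length offset, DESeq2 or limma-voom; 2 coactivators with the length offset and 3 with DESeq2; 2 corepressor genes with library totals, 3 with DESeq2, and 0 with the replicate block or at 0.01; 2 turnover genes with the length offset or DESeq2, and 0 with the replicate block or at 0.01; and 1 MYCBP or MYCBP2 partner with DESeq2. MYC-activated targets called were 11 with the length offset, 12 with DESeq2 (11 lower and 1 higher), and 0 with the replicate block or at 0.01. Of all tested genes DESeq2 called 7.06% lower and 8.1% higher. MLX targets called were 1 with RLE factors or limma-voom, 0 with no filter, the replicate block or at 0.01, and 0 with a 5 CPM filter, which left TXNIP and ARRDC4 untested. Leaving out 1 library gave 0 to 1 further network genes, 0 to 4 coactivators, 0 to 4 corepressor genes, 0 to 3 turnover genes, 0 to 1 partners, 0 to 21 MYC-activated targets, 1 to 3 MYC-repressed targets and 0 to 2 MLX targets. Signs turned for uncalled genes only, of which MAX, MXD1, MNT and SKP1 had main estimates near 0. The main estimates of MGA and MYCBP2 were larger, at 0.3769 and 0.3542. MAX was at -0.0033 with RLE factors, -0.0172 with upper-quartile factors, -0.0229 with no filter, -0.0024 with a 5 CPM filter, -0.0135 with the replicate block, -0.0116 with DESeq2 and -0.0163 with limma-voom. MXD1 was at -0.0102 with upper-quartile factors, -0.0018 with library totals, -0.0076 with no filter, -0.0204 with the replicate block, -0.0423 with the length offset and -0.0194 with limma-voom. With the length offset MGA was at -0.0634 and MYCBP2 at -0.042. Leaving out 1 library gave -0.0464 to 0.1027 for MAX, -0.1588 to 0.1354 for MXD1, -0.1461 to 0.0224 for MNT, -0.1464 to 0.5049 for MGA, -0.125 to 0.475 for MYCBP2 and -0.1356 to 0.0531 for SKP1. With the longest transcript in place of all exons, the antagonists stood at 0.402 times MYC in siCtrl and MLX stood above MYCBP. The cause of these moves was not tested. Counts of 36 to 83 per library limit what can be said of MXD1.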
